A study of Mus musculus with 5 samples.

Results

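Glycolysis splits glucose into pyruvate in the cytosol, and the cellular response to low oxygen raises many of its enzymes. The genes described here are 33 named members of these linked systems: 12 act from glucose entry to the triose phosphates, 11 act from there to lactate or decide the fate of pyruvate, 5 encode hypoxia-inducible factors (HIFs) and their oxygen sensors, and 5 are further genes of the hypoxia response. The rule that defines them lists their symbols and contains no measured value. All 33 were found among the 17739 genes of the table.

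RNA had been sequenced from 5 tumours of mouse cerebellum, numbered 1, 5, 8, 14 and 15, which form a single group. All came from Math1-Cre;Gli2A mice, in which Cre under the Math1 (Atoh1) promoter acts in granule neuron progenitors, the lineage these tumours model, and which also carried the R26;Gli2A allele. The mice received doxycycline (DOX) in the diet from embryonic day 0, the labels give GLI2 as active, and the tissue is labelled as medulloblastoma. Tumour cells had been taken from the cerebellum, dispersed with papain and used for RNA at once, with no sort described, so other cells of the cerebellum can be in each suspension. There is no untreated, normal or GLI2-off group here. Nothing in the labels says that the numbers are separate animals, so every error given below measures the spread between these libraries, part of which may be technical. The age of the mice is not given in the sources used here.

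When oxygen is plentiful, prolyl hydroxylases mark the HIF alpha subunits and the VHL protein directs them to destruction. When oxygen is short the alpha subunits persist, pair with ARNT and bind short DNA motifs beside their targets, among them glucose carriers, glycolytic enzymes and lactate carriers. HIF1A is therefore controlled mainly as a protein, and its mRNA says little about its activity. In granule neuron progenitors and in SHH medulloblastoma, Sonic hedgehog signalling is known to raise hexokinase 2 and aerobic glycolysis, the conversion of glucose to lactate with oxygen present.

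The values are on a log2 scale, so a difference of 1 is a 2-fold difference, and they are read here as regularised-log values. They correct for library size but not for gene length. The tumour markers were present in all 5 libraries: Ptch1, the SHH receptor and a pathway target, stood at 14.66, 13.92, 14.73, 14.45 and 14.60 in tumours 1, 5, 8, 14 and 15, and Gli1 at 12.18, 11.92, 12.48, 12.53 and 12.22. The lowest value of any listed tumour marker was 8.00, for Atoh1. Markers of other cerebellar cells were present too. None of them was at 0, and the lowest in each list ranged from 4.70 (Kcne2, choroid plexus) to 10.31 (S100b, astrocytes). Tumour 5 had the highest median of 7 of the 9 marker lists, all but the tumour list, in which it was lowest, and the pericyte and fibroblast list. Depth is unknown because no counts were used, and the column medians lay between 8.51 and 8.58.

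The HIF motif is short, and its core can be read directly in the DNA beside these genes. Windows of 250 bases before the annotated start were searched for ACGTG and GCGTG on both strands (RefSeq, GRCm38.p6); a palindromic CACGTG counts on both strands, so such matches overlap. Of the 33 genes 30 were in the promoter table. At least 1 match was found before 26 of these 30 (86.7%), against 41.5% of all 27025 genes in that table. By window the shares were 79.1% of 43 and 38.6% of 32851. The windows of these genes also held more CG pairs, a median of 14 against 6, and both motifs contain CG, so the higher share is a description and was not adjusted for base composition. A match is not shown to be bound.

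The windows of 6 genes are printed because their genes form the contrasts followed below: the hexokinase pair, the lactate dehydrogenase pair, Adm as a hypoxia gene and Gapdh as an abundant enzyme. Each runs 5′ to 3′ on the gene's own strand and ends at the base before the start, with matches on either strand in capitals. Hk1 and Ldha have 2 annotated starts each, and both windows are shown.
Hk1 (chr10:62379909-62380158, minus strand): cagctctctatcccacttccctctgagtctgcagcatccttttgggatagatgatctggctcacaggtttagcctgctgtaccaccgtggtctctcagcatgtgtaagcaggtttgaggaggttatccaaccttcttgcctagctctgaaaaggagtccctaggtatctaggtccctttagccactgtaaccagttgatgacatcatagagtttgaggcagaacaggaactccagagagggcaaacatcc
Hk1, downstream start (chr10:62340422-62340671, minus strand): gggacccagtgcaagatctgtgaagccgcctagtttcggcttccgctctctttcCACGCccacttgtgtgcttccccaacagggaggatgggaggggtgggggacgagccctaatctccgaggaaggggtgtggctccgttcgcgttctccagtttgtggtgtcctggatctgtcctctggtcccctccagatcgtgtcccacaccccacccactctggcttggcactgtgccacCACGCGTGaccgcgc
Hk2 (chr6:82774455-82774704, minus strand): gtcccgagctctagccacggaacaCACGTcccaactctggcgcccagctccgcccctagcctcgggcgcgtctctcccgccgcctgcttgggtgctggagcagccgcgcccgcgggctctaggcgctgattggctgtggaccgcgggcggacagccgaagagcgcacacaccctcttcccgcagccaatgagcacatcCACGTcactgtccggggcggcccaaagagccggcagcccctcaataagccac
Ldha (chr7:46845554-46845803, plus strand): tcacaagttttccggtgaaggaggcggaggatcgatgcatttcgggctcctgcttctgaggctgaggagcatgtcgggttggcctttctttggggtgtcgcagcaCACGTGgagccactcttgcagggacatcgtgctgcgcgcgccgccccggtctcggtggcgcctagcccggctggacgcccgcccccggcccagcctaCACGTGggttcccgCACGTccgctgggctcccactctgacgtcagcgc
Ldha, downstream start (chr7:46846832-46847081, plus strand): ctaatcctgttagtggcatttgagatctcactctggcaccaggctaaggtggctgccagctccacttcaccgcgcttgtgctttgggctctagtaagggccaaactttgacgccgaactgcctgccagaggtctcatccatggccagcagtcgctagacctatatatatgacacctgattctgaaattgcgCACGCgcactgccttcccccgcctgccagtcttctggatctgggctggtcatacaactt
Ldhb (chr6:142507958-142508207, minus strand): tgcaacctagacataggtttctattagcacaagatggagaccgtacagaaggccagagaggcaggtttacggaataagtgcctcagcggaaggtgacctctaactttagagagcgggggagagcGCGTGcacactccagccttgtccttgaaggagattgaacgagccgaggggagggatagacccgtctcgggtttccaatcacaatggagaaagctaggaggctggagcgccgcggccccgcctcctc
Adm (chr7:110627407-110627656, plus strand): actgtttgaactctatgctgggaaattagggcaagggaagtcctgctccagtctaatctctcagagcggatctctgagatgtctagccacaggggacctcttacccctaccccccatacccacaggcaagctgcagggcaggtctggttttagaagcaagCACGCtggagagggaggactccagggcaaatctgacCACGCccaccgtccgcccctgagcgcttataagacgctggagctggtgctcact
Gapdh (chr6:125165774-125166023, minus strand): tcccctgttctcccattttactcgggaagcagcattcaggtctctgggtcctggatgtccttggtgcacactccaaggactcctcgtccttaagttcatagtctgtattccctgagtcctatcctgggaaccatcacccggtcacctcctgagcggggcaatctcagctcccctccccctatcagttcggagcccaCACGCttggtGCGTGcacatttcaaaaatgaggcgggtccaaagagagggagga

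The Hk2 window held 2 matches. Of the Hk1 windows the one farther upstream held none and the other held 3, so the hexokinases are not told apart by this feature. The upstream Ldha window held 5, of which 2 pairs are the same CACGTG read on both strands, the downstream one held 1, and the Ldhb window held 1. The Adm and Gapdh windows held 2 each. A gene with more annotated starts has more windows in which a match can fall. Among genes whose values spanned more than 1.5-fold a match was found before 8 of 9 (Eno2 had none), and among the others before 17 of 20 (Gpi1, Tpi1 and Vhl had none).

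Most of the glycolytic genes lay above the typical gene in these tumours. In the values as deposited, with no correction for length, of the 33 genes, 19 had a mean of at least 10, a level reached by 29.4% of genes in the table, and 26 lay above the table's median gene (8.55). The median over all 33 was 10.74, 10.91, 10.68, 10.64 and 10.62 in tumours 1, 5, 8, 14 and 15 (10.72 ± 0.12, SD, n = 5), counting the 32 with a mean of at least 5, against 9.40 ± 0.01 for the 13691 genes tested at that minimum. Longer genes collect more reads, so single genes are compared with each other below after subtracting the log2 exon length in kilobases. On that per-kilobase scale 24 of the 33 lay above the median gene. Gapdh was highest, at 12.30, followed by Pkm (11.48), Aldoa (11.02), Eno1 (10.37) and Ldhb (10.27). The lowest were Car9 (2.74), Slc16a3 (3.97), Ankrd37 (5.17) and Pdk1 (5.32).

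**Figure D1:**
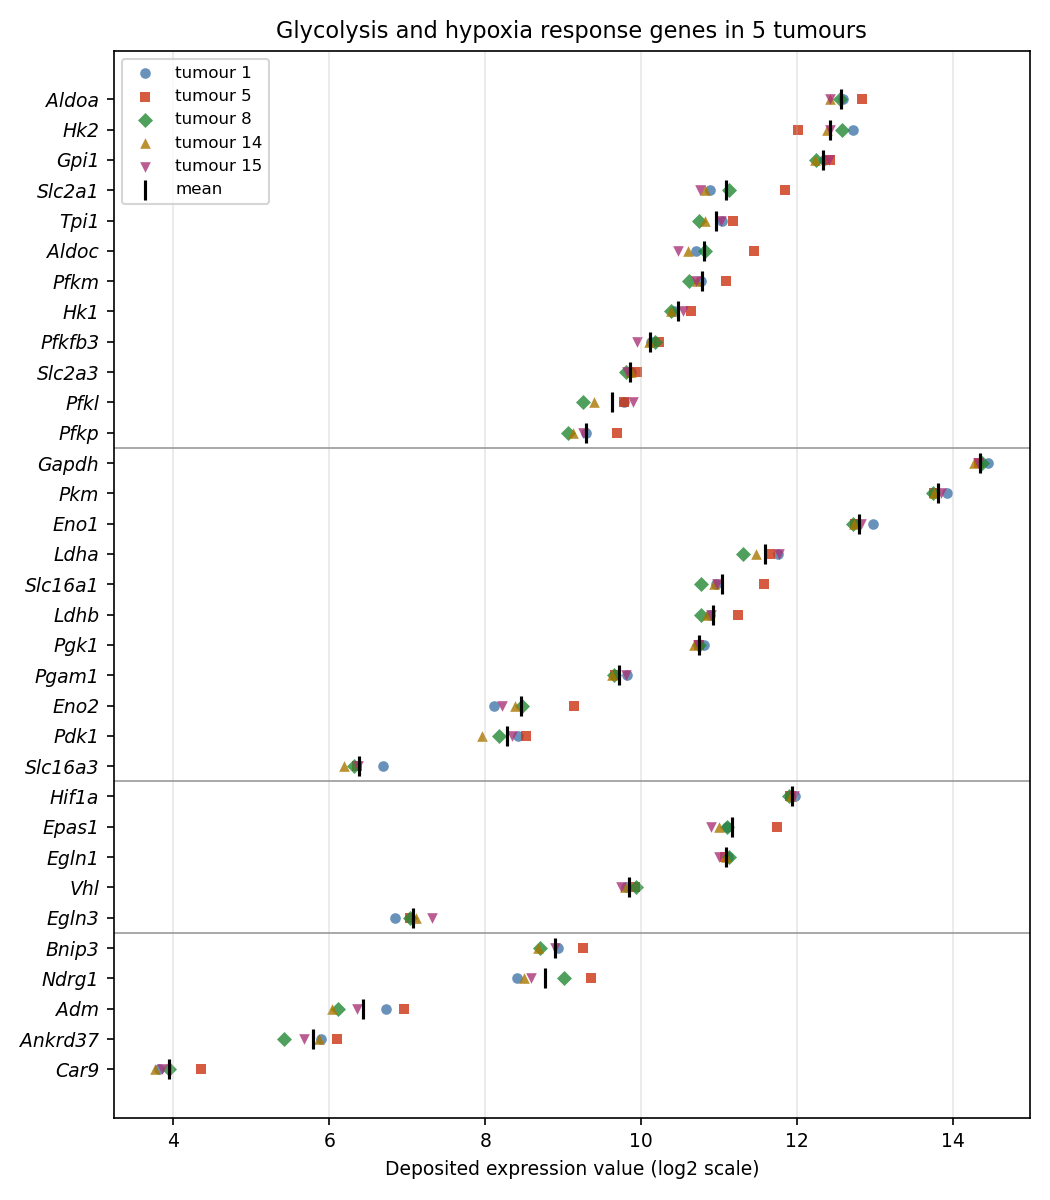
Deposited value (log2 scale, horizontal axis) of each of the 33 genes in each of the 5 tumours, grouped by role. Points are single libraries and bars are means. Values run from Car9 at 3.77 to Gapdh at 14.45, and for most genes the 5 points lie close together while tumour 5 stands to the right for Slc2a1, Aldoc and Eno2.

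Glucose enters cells through carriers, and Slc2a1 encodes GLUT1, the carrier of the blood-brain barrier and of many dividing cells (GRCm38 chromosome 4, 119108711 to 119137983, plus strand). Its values were 10.88, 11.84, 11.13, 10.81 and 10.76 in tumours 1, 5, 8, 14 and 15. Tumour 5 was highest, 2.12-fold above the lowest, and without it the other 4 spanned 1.29-fold. Slc2a3, the neuronal carrier GLUT3, stood at 9.86, 9.95, 9.80, 9.87 and 9.82, a span of only 1.11-fold. Bulk RNA cannot tell more RNA per cell from a larger share of cells that express a gene, here or in any result below.

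Hexokinase traps glucose as glucose 6-phosphate, and Hk2 is the isoform linked to growth and to SHH signalling (chromosome 6, 82725025 to 82774454, minus strand). Hk2 stood at 12.72, 12.02, 12.58, 12.38 and 12.42 (12.42 ± 0.26, SD, n = 5). Tumour 5 was lowest, 0.48 below the median of the other 4, and it was the only one of the 32 genes tested that was lowest there. Hk1, the housekeeping isoform of brain, stood at 10.43, 10.64, 10.38, 10.38 and 10.54 (10.47 ± 0.11, SD, n = 5) and was highest in that tumour. Gpi1, the next enzyme of the path, stood at 12.33 ± 0.09 (SD, n = 5) and spanned 1.14-fold.

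Phosphofructokinase commits the sugar to glycolysis and is built from 3 kinds of subunit, of muscle, liver and platelet type. Pfkm stood at 10.76, 11.08, 10.61, 10.71 and 10.70, Pfkp at 9.29, 9.69, 9.06, 9.13 and 9.26, and both were highest in tumour 5. Pfkl stood at 9.78, 9.78, 9.26, 9.40 and 9.89. Tumours 8 and 14 were its lowest, as they were for Pfkp, but it was highest in tumour 15, and its span of 1.56-fold was as large without tumour 5. Pfkfb3, which makes the activator fructose 2,6-bisphosphate, stayed between 9.95 and 10.22.

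Aldolase cleaves the hexose, and triose phosphate isomerase interconverts the products. Aldoa, the ubiquitous form, stood at 12.58, 12.84, 12.56, 12.42 and 12.43. Aldoc, the form of brain that is rich in astrocytes and Purkinje cells, stood at 10.71, 11.44, 10.82, 10.60 and 10.47. Both were highest in tumour 5, but Aldoc spanned 1.96-fold (1.27-fold without that tumour) and Aldoa 1.34-fold. Tpi1 stood at 10.96 ± 0.18 (SD, n = 5). In all, 10 of the 12 genes of this upper section were highest in tumour 5, all but Hk2 and Pfkl, against 24.1% of all genes tested, and 5 of 12 spanned more than 1.5-fold, against 14.7% of all.

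The main enzymes of the pay-off phase, which returns ATP, varied little. Gapdh, which oxidises the triose, stood at 14.45, 14.34, 14.37, 14.27 and 14.31 (chromosome 6, 125161715 to 125166467, minus strand). Pgk1 stayed between 10.68 and 10.81, Pgam1 between 9.62 and 9.81, Eno1 between 12.71 and 12.97, and Pkm, pyruvate kinase, between 13.74 and 13.92. All 5 were highest in tumour 1, against 20.2% of all genes tested, and none spanned more than 1.20-fold. Pkm yields alternatively spliced isoforms that a gene-level value cannot separate. Gapdh, Eno1, Pgk1 and Ldha have processed pseudogenes or near-identical copies that could have shared their reads, so their absolute levels are less certain.

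Eno2, the neuronal enolase, behaved differently from Eno1 (chromosome 6, 124760053 to 124769673, minus strand). It stood at 8.11, 9.14, 8.47, 8.39 and 8.21, highest in tumour 5 and lowest in tumour 1, a span of 2.05-fold (1.28-fold without tumour 5). Tumour 1, in which Eno1 was highest, thus held the least Eno2.

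Lactate dehydrogenase joins pyruvate and lactate, and the Ldha and Ldhb subunits favour opposite directions. Ldha stood at 11.76, 11.65, 11.31, 11.47 and 11.77, with tumours 8 and 14 lowest. Ldhb stood at 10.88, 11.24, 10.77, 10.84 and 10.89, with tumour 5 above the other 4. Lactate leaves or enters cells through Slc16a1 (MCT1), which stood at 10.96, 11.57, 10.77, 10.93 and 10.97, again highest in tumour 5 and spanning 1.74-fold. Slc16a3 (MCT4), the exporter of strongly glycolytic cells and a known HIF target, was weakly expressed, at 6.69, 6.35, 6.32, 6.18 and 6.37. Pdk1, a HIF target whose product keeps pyruvate out of the mitochondrion, stood at 8.42, 8.52, 8.18, 7.96 and 8.34.

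Among the oxygen sensing genes the most even was Hif1a (chromosome 12, 73901375 to 73947530, plus strand), at 11.98, 11.91, 11.90, 11.93 and 11.96. Its range of 0.08 lies at the 3.24th percentile of the ranges of all genes tested. Epas1, which encodes HIF2A and is prominent in endothelium, stood at 11.10, 11.75 and 11.10 in tumours 1, 5 and 8 and lower in tumours 14 and 15, down to 10.89 (chromosome 17, 86753700 to 86833410, plus strand). It spanned 1.81-fold, and 1.16-fold without tumour 5, where it was highest. Egln1, the main oxygen sensing hydroxylase, stood at 11.08 ± 0.05 (SD, n = 5), and Vhl stayed between 9.74 and 9.93. Egln3, a hydroxylase that HIF itself induces, stood at 6.84, 7.04, 7.04, 7.12 and 7.32, lowest in tumour 1 and highest in tumour 15.

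The 5 hypoxia response genes were at low to moderate levels, and all 5 were highest in tumour 5, as were 24.1% of all genes tested. Adm, the vasodilator adrenomedullin, stood at 6.73, 6.95, 6.11, 6.03 and 6.36, with tumours 1 and 5 above the other 3. It spanned 1.90-fold, and still 1.62-fold without tumour 5 (chromosome 7, 110627661 to 110629820, plus strand). Ndrg1, a stress gene that oligodendrocytes also express, stood at 8.40, 9.35, 9.01, 8.50 and 8.59, with tumours 5 and 8 highest, and spanned 1.94-fold (1.53-fold without tumour 5). Bnip3, a mitophagy receptor, stood at 8.94, 9.25, 8.70, 8.68 and 8.90. Ankrd37, a small HIF target, stood at 5.90, 6.10, 5.42, 5.86 and 5.67. Car9, the carbonic anhydrase used as a hypoxia marker, lay at 3.81, 4.35, 3.95, 3.77 and 3.85. That is below the minimum of 5, and a regularised log, if that is what the values are, pulls such low values together, so differences in Car9 may be understated.

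**Figure D2:**
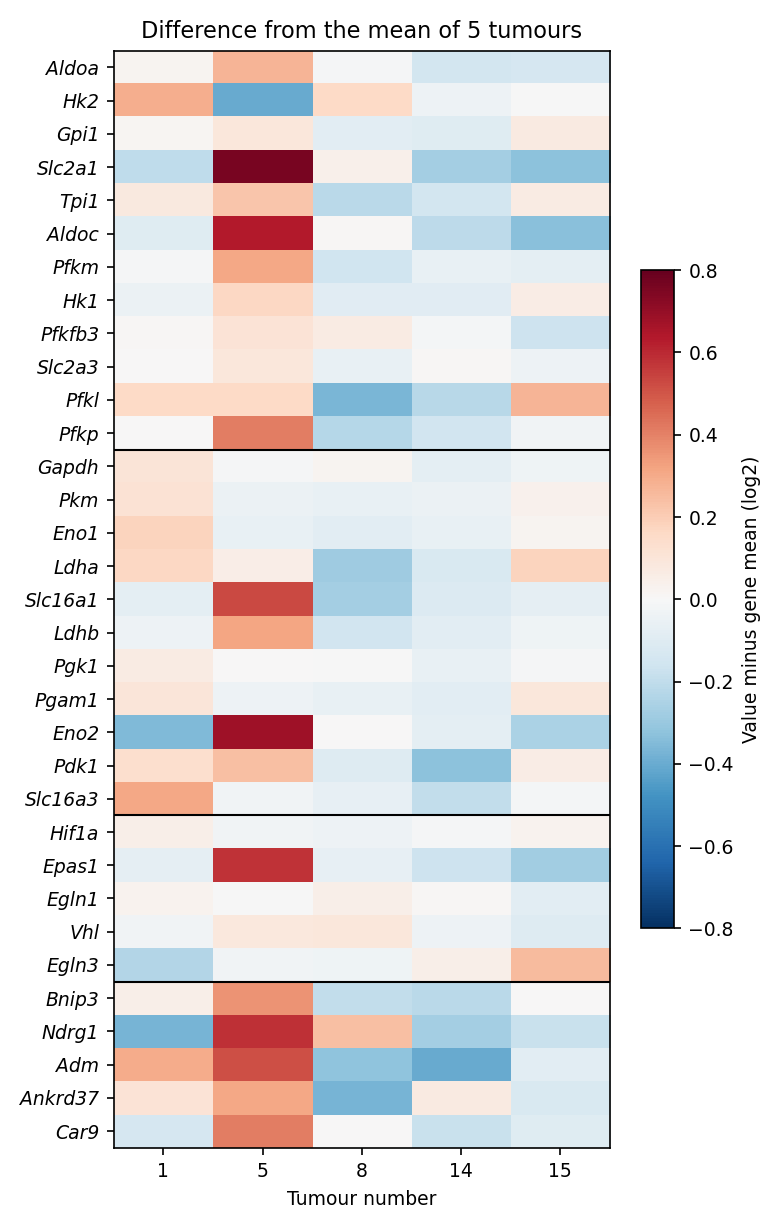
Value of each gene minus its own mean over the 5 tumours (log2, colour; red above, blue below), with tumours in columns and genes in rows, grouped by role. The tumour 5 column is mostly red, with Hk2 as the deepest blue. Gapdh, Pgam1, Eno1, Pkm, Slc16a3, Hif1a, Egln1 and Egln3 also lie slightly below their means there. Gapdh, Pgk1 and Hif1a stay pale throughout.

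Isoenzymes that catalyse the same step, and related carriers and HIF alpha subunits, were compared in pairs within each tumour on the per-kilobase scale. There were 11 such pairs. Each difference had the same sign in 5 of 5 tumours, so for each pair the exact two-sided sign-flip permutation test gave its smallest possible value, p = 0.0625 (0.0625 after Benjamini-Hochberg adjustment over the 11 pairs), and no pair can pass 0.05 with 5 libraries. The sizes below therefore stand beside their spread and not beside a passed test.

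Hk1 minus Hk2 was -2.81, -1.89, -2.71, -2.51 and -2.40 in tumours 1, 5, 8, 14 and 15 (-2.46 ± 0.36, SD, n = 5), so Hk2 was the higher in every tumour, by 5.52-fold on average. Of the hexokinase signal per length, Hk2 made up 83.6% ± 3.6 (SD, n = 5), Hk1 15.4% ± 3.4 and Hk3 0.956% ± 0.256. The Hk2 share was lowest in tumour 5, at 77.7%, and lay between 83.3% and 86.9% in the other 4. Taking the longest transcript as the length lowered the mean difference to -1.58 and the Hk2 share to 74.1%.

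Pfkm made up 76.0% ± 2.4 (SD, n = 5) of phosphofructokinase, Pfkl 17.2% ± 2.5 and Pfkp 6.76% ± 0.33. Pfkm exceeded Pfkp by 3.49 ± 0.08 (SD, n = 5), the smallest SD of the 11 pairs, although these genes differ in length and the Pfkp share is 19.7% with no length subtracted. Aldoa exceeded Aldoc by 1.92 ± 0.22 (SD, n = 5), with 1.56 in tumour 5 and 1.90 to 2.12 in the others. Eno1 exceeded Eno2 by 4.14 ± 0.48 (SD, n = 5), from 3.40 in tumour 5 to 4.67 in tumour 1. Eno2 thus made up 8.06% of enolase in tumour 5 and 3.58% in tumour 1.

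The order of the lactate dehydrogenases depended on the length used. Per kilobase of all exons Ldha lay 0.41 ± 0.21 (SD, n = 5) below Ldhb and made up 43.0% ± 3.6 of the pair. With the longest transcript Ldha lay 0.19 above Ldhb, and in the values as deposited 0.67 above, so neither subunit can be called the more abundant. What does not depend on length is the contrast between tumours: the Ldha minus Ldhb difference was -0.20 and -0.19 in tumours 1 and 15 and -0.67, -0.54 and -0.44 in tumours 5, 8 and 14.

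Among the carriers, Slc2a1 exceeded Slc2a3 by 2.27 ± 0.41 (SD, n = 5), with 2.94 in tumour 5 and 1.99 to 2.37 in the others. Slc16a1 exceeded Slc16a3 by 4.92 ± 0.36 (SD, n = 5) and made up 96.7% ± 0.7 of the pair. Among the oxygen sensing genes, Egln1 exceeded Egln3 by 3.58 ± 0.22 (SD, n = 5). Egln1 made up 52.9% ± 1.1 of the prolyl hydroxylases, Egln2 42.7% ± 0.6 and Egln3 4.46% ± 0.61, and with the longest transcript Egln2 came first, at 49.7% against 46.4%. Hif1a exceeded Epas1 by 0.80, 0.08, 0.72, 0.85 and 0.99. In tumour 5 they were thus nearly level, and Epas1 made up 47.4% of the alpha subunit signal there, against 32.9% to 37.2% in the others. Hif3a made up 1.69% ± 0.52.

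In the regulators that feed pyruvate and fructose 2,6-bisphosphate, the HIF targets were not always the main form. Pdk1 made up 7.44% ± 1.03 (SD, n = 5) of the pyruvate dehydrogenase kinases, behind Pdk2 at 51.5% ± 2.2 and Pdk3 at 34.9% ± 2.7, though its share was 17.4% with no length subtracted. Pfkfb3 was the first of its family, at 45.2% ± 2.0, ahead of Pfkfb2 at 33.8% ± 1.7.

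**Figure D3:**
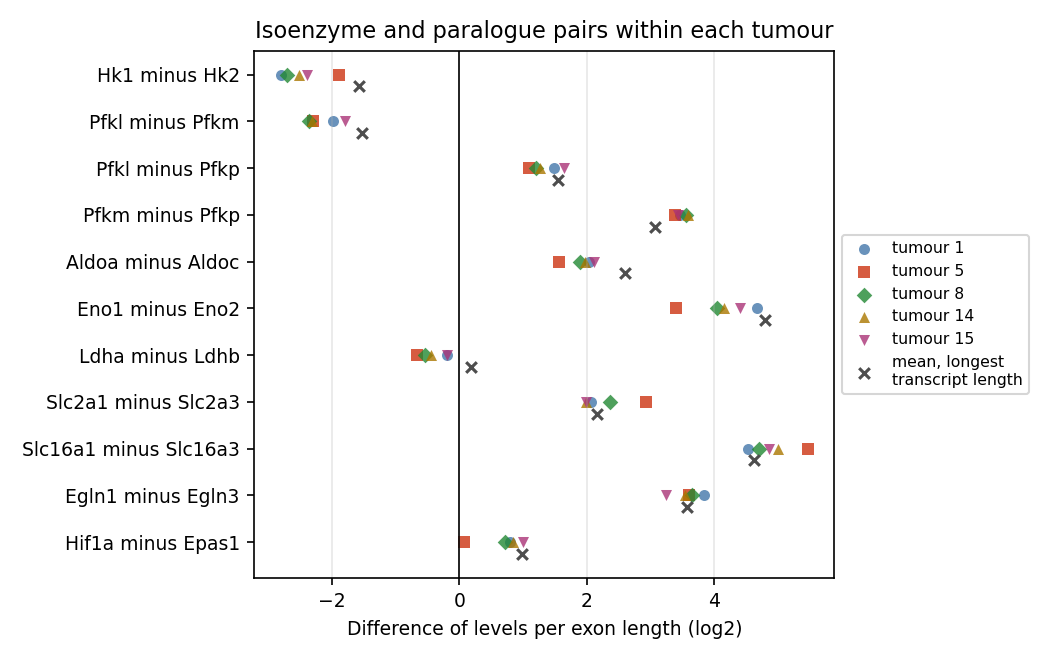
Difference between the levels of paired genes per exon length (log2, horizontal axis), each row a pair. Points are the 5 tumours and crosses are the mean with the longest transcript as length. No pair has points on both sides of 0, Hif1a minus Epas1 comes closest, at 0.08 in tumour 5, and for Ldha minus Ldhb the cross, at 0.19, lies on the other side.

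Variation between the tumours was next set against that of all genes tested. Of the 32 genes tested, 2 spanned more than 2-fold (Slc2a1 and Eno2), or 6.25%, against 3.79% of all 13691. More than 1.5-fold was reached by 11, or 34.4%, against 14.7% of all: Slc2a1, Hk2, Pfkl, Pfkp, Aldoc, Eno2, Slc16a1, Epas1, Adm, Ankrd37 and Ndrg1. Without tumour 5, 3 of the 32 did so (Pfkl, Adm and Ndrg1), or 9.38%, against 8.86% of all, and none spanned more than 2-fold. The median range of the 32 was 0.47, against 0.27 over all genes tested. Leaving out this 1 tumour thus brought the share past 1.5-fold close to that of all genes.

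**Figure D4:**
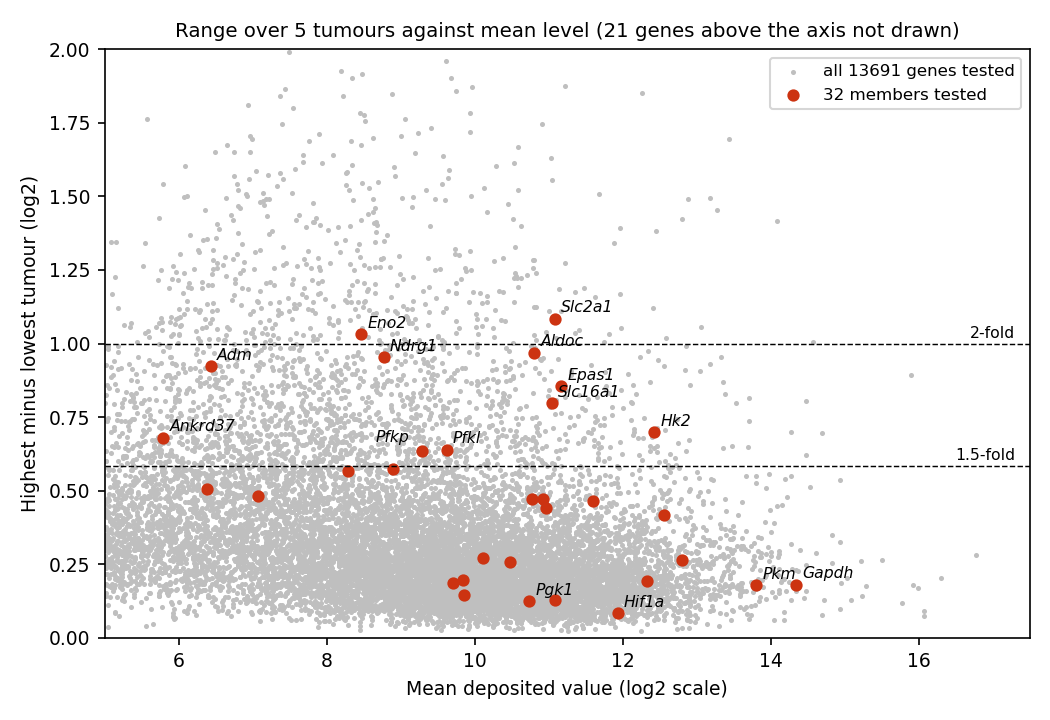
Highest minus lowest tumour (log2, vertical axis) against mean value (log2 scale, horizontal axis) for the 13691 genes tested (grey) and the 32 genes of glycolysis and the hypoxia response (red). Dashed lines mark 1.5-fold and 2-fold. Slc2a1 and Eno2 lie above the upper line and Hif1a lies near the floor.

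By tumour, 19 of the 32 (59.4%) were highest in tumour 5, against 24.1% of all genes tested. Tumour 1 was highest for 8, against 20.2%, namely Hk2, Gapdh, Pgk1, Pgam1, Eno1, Pkm, Slc16a3 and Hif1a. Tumour 15 was highest for 3, against 21.4%, tumour 8 for 2, against 18.5%, and tumour 14 for 0, against 15.8%. In tumour 5, 24 of the 32 lay above the median of the other 4 tumours, both as deposited, against 48.1% of all genes tested, and with libraries centred on their medians. After quantile normalization 27 did so, against 48.1% of all.

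The lowest values fell mostly in tumours 8 and 14. Tumour 8 was lowest for 13 of the 32, against 22.6% of all genes tested, and tumour 14 for 9, against 13.0%. Tumour 15 was lowest for 6, against 22.9%, tumour 1 for 3, against 16.9%, and tumour 5 for 1, Hk2, against 24.6%. Tumours 8 and 14 were together the lowest pair for 14 of the 32 (43.8%), against 11.8% of all, a count chosen after the values were seen. The 14 were Hk1, Gpi1, Pfkl, Pfkp, Tpi1, Pgam1, Eno1, Ldha, Ldhb, Slc16a1, Slc16a3, Pdk1, Adm and Bnip3, and most of these differences are small. None of the 5 HIF and oxygen sensing genes was among them, but 5 genes are too few to differ clearly from the 11.8% of all. No test of this pattern was possible within a single group.

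Markers of several other cell types were also highest in tumour 5, as were 24.1% of all genes tested. In the other tumours the order differed between lists, and in some lists between medians and summed levels. Of the 19 genes highest in tumour 5, 8 were lowest in tumour 8. Of all genes tested 22.6% were lowest in tumour 8, but all genes include those lowest in tumour 5, which the 19 cannot be. The share among all genes highest in tumour 5 is not given here, so no contrast is drawn. In tumour 8 the oligodendrocyte and mature granule neuron medians were next after tumour 5. The endothelial median was lowest there and the astrocyte median next to lowest, but neither rank held for the summed levels of these lists. In tumours 1, 5, 8, 14 and 15 the endothelial median, over 7 markers, was 9.59, 9.98, 9.39, 9.49 and 9.52, with 5 of 7 highest in tumour 5. The log2 summed levels were 12.48, 12.81, 12.31, 12.11 and 12.19, lowest in tumour 14. The oligodendrocyte median was 10.84, 12.12, 11.65, 11.23 and 11.03, with summed levels from 14.39 to 15.80. Of its markers 6 of 6 were highest in tumour 5 and 6 of 6 lowest in tumour 1, the latter against 16.9% of all genes tested. Tumours 5 and 8, highest in this list, were also highest for Ndrg1 and, by median, in the mature granule neuron list. The cell source of the Ndrg1 RNA was not tested. The mature granule neuron median was 7.31, 8.87, 7.90, 7.86 and 7.16, with 5 of 6 highest in tumour 5. By summed level, however, tumour 8 was lowest in this list, at 13.05, and tumour 5 highest, at 13.46.

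Astrocyte markers had medians of 11.95, 12.35, 12.05, 12.12 and 12.22, with summed levels from 15.15 to 15.52. Of them 4 of 7 were highest in tumour 5, against 24.1% of all genes tested. Microglial markers had medians of 10.08, 10.62, 10.05, 9.96 and 9.84 (6 of 6 highest in tumour 5, summed levels from 12.43 to 13.26), and all 4 choroid plexus markers were highest there as well, with medians from 6.88 to 7.79 and summed levels from 13.07 to 14.74. Tumour markers went the other way, with medians of 14.29, 13.85, 14.20, 14.27 and 13.98 and summed levels from 16.39 to 16.71. Of them 3 of 6 were lowest in tumour 5, against 24.6% of all genes tested. Pericyte and fibroblast markers, with medians from 10.83 to 11.44 and summed levels from 13.80 to 14.75, were not highest there. Immediate early genes, which dissociation can induce, had medians of 11.85, 12.77, 12.49, 12.53 and 12.54. Of them 8 of 8 were lowest in tumour 1, against 16.9% of all genes tested. The part of these cell types and of dissociation in the tumour 5 values was not tested.

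**Figure D5:**
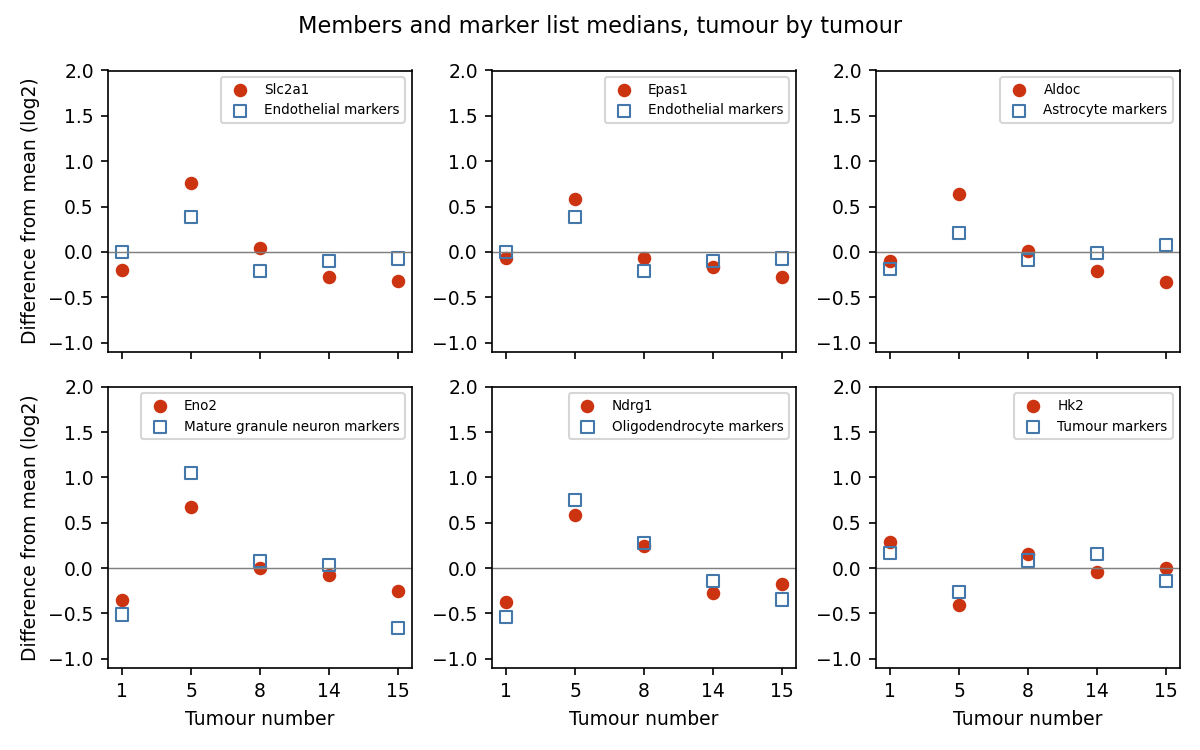
Difference from the mean of the 5 tumours (log2, vertical axis) in each tumour (horizontal axis) for 6 genes (filled circles) and for the median of a marker list (open squares), a pairing made with the values known. In tumour 5 Slc2a1, Epas1, Aldoc, Eno2 and Ndrg1 and the list beside each lie above 0, and Hk2 and the tumour markers lie below it. Most marker lists were highest in tumour 5, so the shared direction there does not single out the list drawn. In tumour 8 Slc2a1 lies above 0 and the endothelial median below it. The summed endothelial level, not drawn, was 12.31 there, 12.11 in tumour 14 and 12.19 in tumour 15.

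Other genes of the same pathways, listed by function, gave the setting. Of 16 other glycolysis genes with a mean of at least 5, none spanned more than 2-fold and 3 more than 1.5-fold, against 3.79% and 14.7% of all genes tested. Bsg, the chaperone of the lactate carriers, stood at 12.81, 13.20, 12.66, 12.74 and 12.77, and Pfkfb2 between 9.56 and 9.69. Of 12 genes of pyruvate entry into the mitochondrion, 1 spanned more than 1.5-fold, against 14.7% of all genes tested. This was Pdk4, a fasting-induced kinase, at 6.25, 6.93, 7.09, 6.86 and 7.16. The pyruvate dehydrogenase subunits Pdha1 and Pdhb spanned 1.11-fold and 1.07-fold.

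None of the 8 pentose phosphate genes spanned more than 1.5-fold, against 14.7% of all genes tested, a share that 8 genes are too few to set apart. Tkt stood between 12.12 and 12.50, Taldo1 between 10.93 and 11.32, and H6pd between 8.37 and 8.50. Of these 8 genes 6 were highest in tumour 1 and 1 in tumour 5, against 20.2% and 24.1% of all genes tested, whereas for the upper section of glycolysis the counts were 1 and 10 of 12. That difference was not tested.

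Of 9 other genes of the HIF pathway 1 spanned more than 1.5-fold, against 14.7% of all genes tested. This was Hif3a, an alpha subunit that can oppose the others. It stood at 6.25, 7.76, 6.97, 6.82 and 6.75, a span of 2.84-fold, with tumour 5 highest and tumour 1 lowest. Arnt2, a neural partner of the alpha subunits, stood between 11.62 and 11.84, and Elob, a subunit of the VHL complex, between 11.17 and 11.35. Of 26 other hypoxia response genes none spanned more than 2-fold, 6 spanned more than 1.5-fold and 9 were highest in tumour 5, against 14.7% and 24.1% of all genes tested. Mxi1, a MYC antagonist, stood between 11.79 and 11.95, Tfrc, the transferrin receptor, between 11.94 and 12.47, and P4ha2, a collagen hydroxylase, between 5.65 and 6.14.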

How the data were processed

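The authors deposited 1 table of log2 values per gene and library, 17739 genes by symbol, read here as DESeq2 regularised-log values, which no source used here states outright. The submitters' processing notes list mm10 and GRCm38 as builds and STAR 2.4.1, Subread 1.4.6, featureCounts and DESeq2 as tools; for the annotation, the strand setting and the gene filter, nothing is given in the sources used here. Of its 7 columns 2 match no sample and were not used. They may have entered the transformation.

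The genes, lists and rules were chosen with earlier results of these data known. All listed members were named, and of every other list the 2 of highest mean, the 1 of lowest and up to 3 that spanned over 2-fold. A gene that this rule names is not reported here. Ranges were computed for 13691 genes, those averaging 5 or more. Beside most counts of genes past a fold, or highest or lowest in a tumour, or in the same paragraph, stands the percentage of all tested genes. Exon lengths and positions came from GENCODE M21 on GRCm38, where 97.8% of symbols had 1 gene used. The promoter motif count was added after the data were seen. Alternatives were other lengths, filters and scalings, and leaving out each library. The range count, the count of genes highest in a library and the sign-flip test were tried on made-up values with known answers. The other steps were not. Python 3.11.15, numpy 2.4.6, pandas 2.3.3, scipy 1.17.1 and matplotlib 3.10.9 were used.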

Additional observations from a re-analysis of the deposited data

Results flagged for a closer look

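Of 78 values tested over the 5 tumours, 7 had 1 tumour set apart from the other 4 by a gap that was large for the range, and in all 7 it was tumour 5. Chance alone flags about 1 in 20 such values, and values that share genes or a library are not independent.

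Slc16a1 stood at 11.57 in tumour 5, against 10.77 to 10.97 in the others. Its partner Bsg stood at 13.20, against 12.66 to 12.81. Ldhb stood at 11.24, against 10.77 to 10.89, and since Ldhb is the middle gene of the lower glycolysis and lactate list, the median of that list is the same value, 11.24. Epas1 stood at 11.75, against 10.89 to 11.10. The median of the upper glycolysis and hexose entry list was 11.13, against 10.62 to 10.74. The median of the choroid plexus markers was 7.79, against 6.88 to 7.14.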

How the results depend on the processing

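All 11 pair differences kept their sign with the other lengths, except Ldha minus Ldhb. That pair turned from -0.41 to 0.67 with no length subtracted and to 0.19 with the longest transcript. Leaving out a tumour could not turn a sign, since within each pair every tumour gave the same sign. Leaving out each tumour in turn, the count of genes spanning more than 2-fold ranged from 0 (without tumour 5) to 2, with 1 without tumour 1, and that of genes spanning more than 1.5-fold from 3 (without tumour 5) to 11. Genes highest in tumour 8 fell from 2 to 1 after quantile normalization. The level of all the genes was 10.29 by mean in place of median. Of the 32 shares within gene families, 23 moved by more than 1 SD with no length subtracted and 19 with the longest transcript. The Eno3 share went from 5.88% to 1.99% and 2.60% in these runs. Leaving out a tumour could not be a test here, since dropping 1 of 5 values always moves a mean by less than 1 SD. Depth is unknown, so low genes such as Car9 carry an unmeasured counting error.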
